A study of Mus musculus with 4 samples.

Results

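The 10 genes described here regulate, carry and store iron in the mouse liver: the hepcidin copies Hamp and Hamp2, the signals and sensors Bmp6, Hfe and Tfr2, the transport genes Trf, Tfrc and Slc40a1, and the ferritin subunits Fth1 and Ftl1. They were taken by name from the 35522 genes listed in each deposited table, with earlier results of these data known. All 10 were found and passed the filter on low counts. Liver RNA was sequenced from 2 Control and 2 Dph1 KO samples, all labelled C57BL/6 and all collected 1 day after diethylnitrosamine (DEN), a carcinogen that hepatocytes convert into a DNA-alkylating agent. Dph1 encodes a subunit of the complex that starts diphthamide synthesis on the translation elongation factor eEF2. The age, the dose of DEN, the deleted part of Dph1 and the cells it was deleted in were not given in the sources used here. Every group carries DEN, so a response to DEN and a standing difference between the genotypes cannot be told apart. The labels do not say that the samples came from separate animals, so p-values measure only how these samples differ among themselves, a spread that may be technical.

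Hepcidin is a peptide hormone that hepatocytes secrete. It binds ferroportin, the only known cellular iron exporter of mammals, blocks it and drives its degradation, so that less iron enters plasma. Hepatocytes set Hamp transcription mainly through BMP ligands and SMAD proteins, with HFE and transferrin receptor 2 reporting the iron load of transferrin, and through IL-6 and STAT3 in inflammation. Inside cells, iron regulatory proteins bind hairpins called iron responsive elements: in the 5′ UTR they block translation, as in the ferritin mRNAs, and in the 3′ UTR they protect the mRNA, as in Tfrc.

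Dph1 itself stood at 70.3 and 68.3 scaled CPM (read counts relative to library size, scaled by the trimmed mean of M-values, TMM) in Control and at 17.8 and 31.5 in Dph1 KO. It fell by 1.49 on the log2 scale (SE 0.26, adjusted p = 0.01065, edgeR quasi-likelihood test), and the second Dph1 KO library kept the higher level. On uniquely matched reads the log2 fold change was -1.93 (edgeR adjusted p = 0.00215), and over 12 settings it lay between -1.94 and -1.05. The libraries held 19474596 to 21137358 reads in genes. The hepatocyte markers were all present, with albumin (Alb), chosen after its values were seen, at 26632 to 36903 scaled CPM. Log2 fold changes were lower in protein-coding genes with a higher GC content of the transcript (Spearman rho = -0.62, across genes, which are not independent replicates), so values with the trend on GC content and length removed are also given. The median log2 fold change of all tested genes was 0.04 after TMM scaling and 0.30 when libraries were scaled by their totals alone. The samples are bulk liver, so fewer cells of a type and less RNA per cell cannot be told apart.

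None of the 10 genes passed the threshold (adjusted p under 0.05, edgeR quasi-likelihood test with Benjamini-Hochberg adjustment over 13303 genes), beside 12.3% of all tested genes (4.86% higher and 7.47% lower in Dph1 KO). At an unadjusted p under 0.05 the test gave 1 gene with a higher value in Dph1 KO, Slc40a1, and 2 with a lower value, Fth1 and Ftl1, beside 16.3% and 17.9% of all tested genes. DESeq2 called Fth1 and Ftl1 lower, beside 10.8% of the genes it tested. The libraries of the genotypes did not overlap for 8 of the 10 genes: Hamp, Slc40a1 and Bmp6 lay above Control, and Trf, Tfr2, Fth1, Ftl1 and Hfe below it. The same held for 67.4% of all tested genes (34.9% above and 32.5% below), so the share among the 10 was near the background. The median log2 fold change of the 10 was -0.09, against 0.04 over all tested genes. Other settings called between 0 and 3 of the 10 in a given direction. Library totals alone called 1 higher (Slc40a1) and 1 lower (Fth1), beside 19.8% and 5.93% of all genes. Fth1 was called lower on exon reads, beside 8.95%, and with the GC and length trend removed, beside 5.1%, and both ferritin genes without the filter on low counts, beside 6.68%. Leaving out the second Dph1 KO library called Tfrc and Slc40a1 higher, beside 18.9%, and Tfr2, Fth1 and Ftl1 lower, beside 20.4%.

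**Figure D1:**
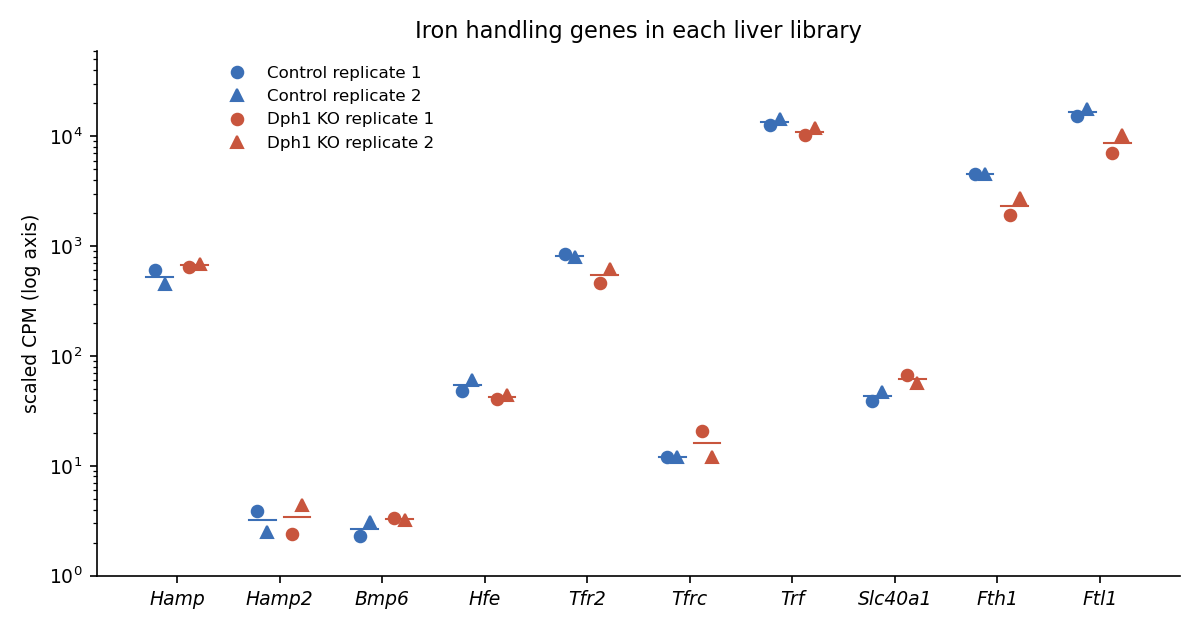
Scaled CPM (log axis) of the 10 genes in the 4 liver libraries. Points are libraries and bars are group means. Fth1 and Ftl1 lie lower in both Dph1 KO libraries than in both Control libraries, while Hamp2 and Tfrc overlap between the genotypes.

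**Figure D2:**
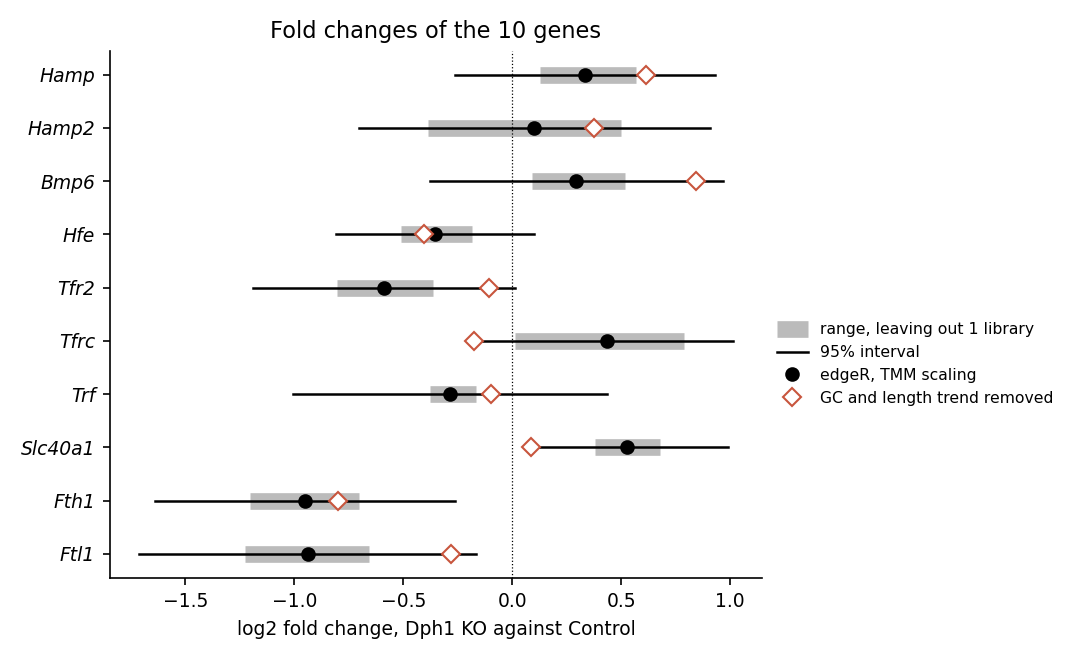
Log2 fold change of each gene, Dph1 KO against Control, with its 95% interval (line), the range over the fits that leave out 1 library (grey) and the value with the GC and length trend removed (diamond). The intervals of Slc40a1, Fth1 and Ftl1 do not reach 0, and their adjusted p values lie above 0.05. With the trend removed, Fth1, Ftl1, Tfr2, Trf and Slc40a1 lie nearer to 0 and Hamp, Hamp2, Bmp6 and Hfe farther from it. Tfrc changes sign.

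In TPM, a unit that also divides by gene length, the 10 genes stood in the same order in all 4 libraries. Ftl1 led at 15808 to 26318 TPM, followed by Trf at 8487 to 9711 TPM, Fth1 at 4933 to 8209 TPM and Hamp at 1609 to 3538 TPM. Tfr2 followed at 332 to 440 TPM, Hfe at 42.2 to 49.1 TPM and Slc40a1 at 17.1 to 41.8 TPM. The lowest levels were those of Hamp2 (7.86 to 17.9 TPM), Tfrc (3.17 to 8.83 TPM) and Bmp6 (1.39 to 2.64 TPM). Ranges of neighbours in this order overlapped only between Slc40a1 and Hamp2 and between Hamp2 and Tfrc. The mRNAs of the ferritin subunits, of transferrin and of the hepcidin copy Hamp thus made up the top of the order. The ligand Bmp6, which liver sinusoidal endothelial cells are known to make, stood at its lower end.

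Hamp and Hamp2 are neighbouring copies on chromosome 7 (GRCm38), Hamp at 30942368 to 30944017 and Hamp2 at 30922372 to 30924181, both on the minus strand and both with 3 exons. Their transcripts were 94.6% identical over 410 aligned bases. The 250 bases before each start in RefSeq (GRCm38.p6) were 91.9% identical over 247 aligned bases, with 20 substitutions. They are shown because Hamp was high and Hamp2 low in every library while the promoters are near copies. Capitals mark the letters of a known BMP response element (searched as GGCGCC) or their counterpart, and the STAT half-site pair (searched as TTCNNNGAA).
Hamp, chr7:30944030-30944279, minus strand: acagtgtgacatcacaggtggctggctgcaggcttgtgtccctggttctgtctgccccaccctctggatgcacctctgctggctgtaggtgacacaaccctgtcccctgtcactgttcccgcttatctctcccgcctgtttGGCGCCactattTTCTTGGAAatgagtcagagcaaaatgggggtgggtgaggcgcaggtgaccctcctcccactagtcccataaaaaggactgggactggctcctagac
Hamp2, chr7:30924182-30924431, minus strand: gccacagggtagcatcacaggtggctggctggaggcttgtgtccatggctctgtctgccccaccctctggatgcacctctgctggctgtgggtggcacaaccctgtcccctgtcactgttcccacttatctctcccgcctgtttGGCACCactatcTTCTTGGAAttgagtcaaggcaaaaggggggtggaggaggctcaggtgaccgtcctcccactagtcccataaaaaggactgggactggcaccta
The element GGCGCC stood 109 bases before the start of Hamp. Hamp2 carried GGCACC in that place, 106 bases before its start, through the substitution G145A (the Hamp base, its position counted from 1 at the 5′ end of the printed Hamp sequence, then the Hamp2 base). TTCTTGGAA stood in both promoters, 97 and 94 bases before the start, with the substitutions T153C and A163T directly beside it. The part of any of the 20 substitutions in the levels of Hamp and Hamp2 was not tested. Of 32851 RefSeq promoters of the same length, 9.59% held GGCGCC and 7.02% held TTCNNNGAA on either strand. A match describes the letters only.

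Hamp, the main hepcidin gene, stood at 609 and 448 scaled CPM in Control and at 640 and 693 in Dph1 KO. Both Dph1 KO libraries were above both Control libraries, and the first Control library came close to them. The means were 528 ± 114 and 666 ± 37.6 scaled CPM (SD, n = 2 each), a log2 fold change of 0.33 (SE 0.27, 95% interval -0.26 to 0.93, adjusted p = 0.394, edgeR). The value was 0.61 with the GC and length trend removed (edgeR adjusted p = 0.0935). In TPM the libraries gave 2403 and 1609 in Control, against 3538 and 3067 in Dph1 KO, a wider gap than in scaled CPM. Over 12 settings the log2 fold change lay between 0.13 and 0.74 and none passed the threshold.

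Hamp2, whose product is not known to act on ferroportin as hepcidin does, had few reads: 71 and 45 in Control, 57 and 97 in Dph1 KO. These gave 3.86 and 2.50 scaled CPM in Control, against 2.42 and 4.44 in Dph1 KO, so that the genotypes overlapped and the Dph1 KO libraries held both the lowest and the highest value. The log2 fold change was 0.10 (SE 0.36, 95% interval -0.70 to 0.91, edgeR adjusted p = 0.864) and 0.37 with the GC and length trend removed (edgeR adjusted p = 0.448). It took the opposite sign when the second Control library (-0.18) or the second Dph1 KO library (-0.39) was left out. No difference was detected with these few reads and 2 libraries a genotype.

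Reads were largely assigned to one copy or the other without ambiguity. Uniquely matched reads of Hamp numbered 11153 of 11199 and 8010 of 8047 in Control, and 15037 of 15091 and 15083 of 15145 in Dph1 KO, or 99.54% to 99.64%. For Hamp2 they numbered 70 of 71, 43 of 45, 56 of 57 and 97 of 97, or 95.56% to 100%, with exact 95% (Clopper-Pearson) intervals up to 14.6 percentage points wide that cover counting error only. On uniquely matched reads alone the log2 fold change was 0.33 for Hamp (edgeR adjusted p = 0.384) and 0.12 for Hamp2 (edgeR adjusted p = 0.833), close to the values from total reads. The ratio of Hamp to Hamp2 in TPM was 173 and 205 in Control, against 290 and 171 in Dph1 KO. From unique exon reads per kilobase it was 175 and 204 in Control, against 294 and 170 in Dph1 KO, so the high ratio of the first Dph1 KO library did not depend on shared reads.

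**Figure D3:**
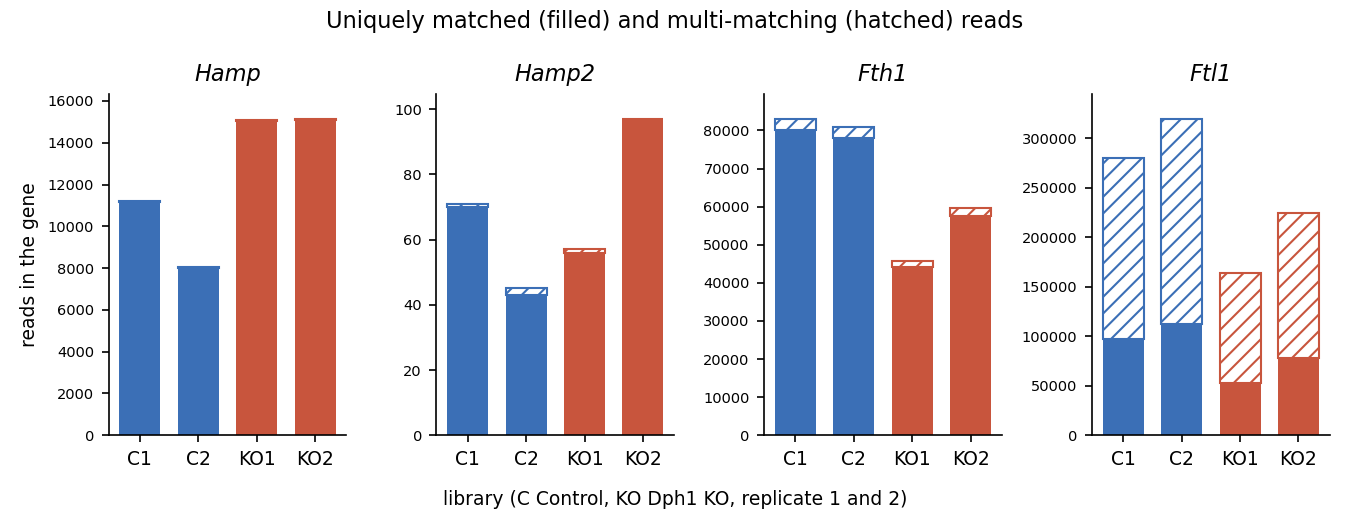
Reads in Hamp, Hamp2, Fth1 and Ftl1 in each library, uniquely matched (filled) and matching several places (hatched), with a separate linear axis for each gene. Nearly all reads of the hepcidin copies and of Fth1 are unique, while 32.26% to 35.26% of Ftl1 reads are.

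Among the signals and sensors that feed into Hamp, Bmp6, the BMP ligand that follows liver iron (chromosome 13, 38345716 to 38499728, plus strand), stood at 2.28 and 3.06 scaled CPM in Control, against 3.35 and 3.20 in Dph1 KO. The Dph1 KO libraries lay just above the second Control library. The log2 fold change was 0.29 (SE 0.30, 95% interval -0.38 to 0.97, edgeR adjusted p = 0.510) and 0.84 with the GC and length trend removed (edgeR adjusted p = 0.0930). Of the sinusoidal endothelial markers, all 8 were detected, at sums of 307 and 319 scaled CPM in Control, against 242 and 248 in Dph1 KO. Of them Stab1, a scavenger receptor, passed the threshold, from 117 and 136 in Control to 64.3 and 71.7 in Dph1 KO (edgeR log2 fold change -0.90, adjusted p = 0.0275). The other 7 did not pass, and over all tested genes 7.47% were called lower. The median log2 fold change of the 8 markers was -0.09, against 0.04 over all tested genes. The part of these cells in the Bmp6 values was not tested.

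Hfe, the class I-like protein mutated in the common hereditary form of iron overload (chromosome 13, 23703841 to 23710811, minus strand), stood at 47.9 and 60.0 scaled CPM in Control, against 40.3 and 44.1 in Dph1 KO. The groups did not overlap, with the first Control library only slightly above the second Dph1 KO library. The log2 fold change was -0.35 (SE 0.21, 95% interval -0.81 to 0.10, edgeR adjusted p = 0.241) and -0.41 with the GC and length trend removed (edgeR adjusted p = 0.122). In TPM the group means were nearly the same, 45.7 ± 4.89 in Control and 45.7 ± 3.77 in Dph1 KO (SD, n = 2 each).

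Tfr2, the hepatocyte receptor that senses iron-loaded transferrin (chromosome 5, 137569851 to 137587481, plus strand), stood at 840 and 794 scaled CPM in Control, against 463 and 624 in Dph1 KO. Both Dph1 KO libraries were below both Control libraries, the first farther than the second. The Dph1 KO libraries averaged 66.6% of the Control level, at a log2 fold change of -0.59 (SE 0.27, 95% interval -1.19 to 0.01, edgeR adjusted p = 0.154). With the GC and length trend removed it was -0.11 (edgeR adjusted p = 0.719), and with the second Dph1 KO library left out it was -0.80 and passed the threshold (edgeR adjusted p = 0.0194). The summed hepatocyte markers stood at 71452 and 89191 scaled CPM in Control, against 56602 and 58927 in Dph1 KO. Of these 7 markers only Apoa1, an apolipoprotein, passed the threshold, at a log2 fold change of -1.92 (edgeR adjusted p = 0.0161). Over all tested genes, 7.47% were called lower. The median log2 fold change of the 7 markers was -0.02, against 0.04 over all tested genes. The part of these markers in the values of the hepatocyte genes was not tested.

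Another 13 tested genes were those for further BMP ligands, receptors, coreceptors and SMAD proteins and for the protease Tmprss6. Of these 13, 1 rose and 1 fell, beside 4.86% and 7.47% of all tested genes. Bmpr2, a type II BMP receptor, rose from 4.95 and 5.28 scaled CPM in Control to 10.98 and 8.64 in Dph1 KO (edgeR log2 fold change 0.94, SE 0.24, adjusted p = 0.0346). The call was lost with the GC and length trend removed (0.46, edgeR adjusted p = 0.139) and without either Control library or the first Dph1 KO library. Smad9, a BMP-responsive SMAD, fell from 6.04 and 6.79 scaled CPM to 3.64 and 2.42 (edgeR log2 fold change -1.07, SE 0.29, adjusted p = 0.0396), and the call was lost without either Control library and with library totals alone (-0.80, edgeR adjusted p = 0.0814). Chosen after their values were seen, Tmprss6, the protease that lowers hepcidin by cutting hemojuvelin, stood at 868 and 780 scaled CPM in Control, against 434 and 670 in Dph1 KO (edgeR adjusted p = 0.183), and Hfe2, which encodes hemojuvelin, had a log2 fold change of 0.06 (edgeR adjusted p = 0.849). With the GC and length trend removed, Tmprss6 had -0.07 (edgeR adjusted p = 0.830) and Hfe2 0.48 (edgeR adjusted p = 0.128). The median log2 fold change of the 13 was 0.02, against 0.04 over all tested genes.

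Of 7 BMP and SMAD target genes, 1 fell and none rose, beside 7.47% and 4.86% of all tested genes, with a median log2 fold change of -0.67 that was -0.03 with the GC and length trend removed. The gene was Id1, an inhibitor of helix-loop-helix factors that BMP signals induce beside Hamp. It stood at 24.1 and 23.3 scaled CPM in Control, against 9.49 and 14.5 in Dph1 KO (edgeR log2 fold change -0.98, SE 0.23, adjusted p = 0.0283). The call was lost with the trend removed (-0.53, edgeR adjusted p = 0.0534) and without either Control library. With the trend removed, Bambi, a decoy BMP receptor, was called lower at -1.25 (edgeR adjusted p = 0.0249) and Atoh8, a helix-loop-helix factor, higher at 0.60 (edgeR adjusted p = 0.0298), both chosen after their values were seen. Id1 lay below Control and Hamp above it, and the difference between the genes was not tested.

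Of 10 tested genes in the IL-6 and STAT3 arm, 3 rose and none fell, beside 4.86% and 7.47% of all tested genes. The median log2 fold change was 0.50, against 0.04 over all tested genes. Il6ra, Il6st, Jak1 and Jak2 were not called, at edgeR log2 fold changes of -0.06, 0.04, 0.47 and 0.52. Nor were Stat3 (0.40) and Socs3 (-0.10), and these genes were chosen after their values were seen. Saa1 and Saa2, acute-phase serum amyloid genes of hepatocytes, stood at 81.1 and 96.8 and at 28.6 and 26.1 scaled CPM in Control. In Dph1 KO they stood at 182 and 541 and at 81.5 and 475, with the second library far above the first in both. Their log2 fold changes were 2.02 (SE 0.42, edgeR adjusted p = 0.0193) and 3.35 (SE 0.62, edgeR adjusted p = 0.0128), and both calls held without each library in turn. Without the second Dph1 KO library the values were 1.05 for Saa1 and 1.59 for Saa2. On uniquely matched reads they were 2.02 and 3.35. Lcn2, the siderophore-binding protein lipocalin 2, chosen after its values were seen, stood at 210 and 197 scaled CPM in Control, against 97.1 and 599 in Dph1 KO (edgeR log2 fold change 0.77, adjusted p = 0.364), and without the second Dph1 KO library it was called lower (-1.05, edgeR adjusted p = 0.00236). Fgl1, a liver protein that IL-6 induces, rose from 118 and 112 to 220 and 237 scaled CPM (edgeR log2 fold change 0.99, SE 0.22, adjusted p = 0.0237), a call lost without either Control library. Hamp is itself a known target of IL-6, and beside these 3 genes it showed a log2 fold change of 0.33 that did not pass. Il6, chosen likewise, was seen at 0.0544 scaled CPM in 1 Control library and was listed at 0 in the other 3.

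Trf, which encodes transferrin, the plasma iron carrier (chromosome 9, 103208876 to 103230286, minus strand), stood at 12610 and 14278 scaled CPM in Control, against 10322 and 11765 in Dph1 KO. Both Dph1 KO libraries were below both Control libraries. The log2 fold change was -0.28 (SE 0.33, 95% interval -1.005 to 0.44, edgeR adjusted p = 0.556) and -0.095 with the GC and length trend removed (edgeR adjusted p = 0.791). Its direction depended on the scale: in TPM the means were 8635 ± 209 in Control and 9304 ± 575 in Dph1 KO (SD, n = 2 each), and the test on log2(TPM + 1) gave 0.11 (limma adjusted p = 0.940).

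Tfrc, the receptor by which most cells take up iron-loaded transferrin (chromosome 16, 32608896 to 32632794, plus strand), stood at 12.07 and 11.96 scaled CPM in Control, against 20.56 and 11.94 in Dph1 KO. The first Dph1 KO library stood above the other three, which were nearly equal, so the groups overlapped. The log2 fold change was 0.44 (SE 0.26, 95% interval -0.14 to 1.01, edgeR adjusted p = 0.253), and it rested on that 1 library. Without the first Dph1 KO library it was 0.015, and without the second it was 0.79. With the GC and length trend removed it was -0.17 (edgeR adjusted p = 0.527). The ratio of Tfr2 to Tfrc in TPM, 122 and 120 in Control, was 37.6 and 90.4 in Dph1 KO.

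Slc40a1 encodes ferroportin, the iron exporter on macrophages and hepatocytes that hepcidin blocks (chromosome 1, 45908070 to 45925594, minus strand). It stood at 38.7 and 47.3 scaled CPM in Control, against 67.2 and 56.6 in Dph1 KO, and both Dph1 KO libraries were above both Control libraries. The means were 43.0 ± 6.08 and 61.9 ± 7.49 scaled CPM (SD, n = 2 each), a log2 fold change of 0.53 (SE 0.21, 95% interval 0.06 to 0.99, edgeR adjusted p = 0.108). It was 0.80 with library totals alone (edgeR adjusted p = 0.0122) and 0.09 with the GC and length trend removed (edgeR adjusted p = 0.748). Of the Kupffer and macrophage markers, 7 of 8 were in the tables, at sums of 283 and 296 scaled CPM in Control, against 172 and 290 in Dph1 KO. Of them only Cd68, a lysosomal protein, passed the threshold, lower in Dph1 KO, beside 7.47% of all tested genes. The median log2 fold change of the 7 markers was 0.08, against 0.04 over all tested genes. The part of these cells in the Slc40a1 values was not tested.

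Ferritin, the shell in which cells store iron, is built from the heavy subunit Fth1, which oxidises iron, and the light subunit Ftl1, which helps the mineral core form. Fth1 lies on chromosome 19 from 9982703 to 9985092 on the plus strand, and Ftl1 on chromosome 7 from 45457944 to 45459886 on the minus strand. Both genes and Tfrc and Slc40a1 carry iron responsive elements, found as a CAGTGN loop between 5 paired bases on each side with a C 6 bases before the loop. They are printed from GENCODE M21 transcripts because the 4 genes are the ones of the 10 that iron regulatory proteins are known to bind. Capitals mark the loop.
Fth1, 5′ UTR: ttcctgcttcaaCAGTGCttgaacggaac
Ftl1, 5′ UTR: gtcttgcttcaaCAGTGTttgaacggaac
Slc40a1, 5′ UTR: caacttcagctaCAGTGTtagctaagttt
Tfrc, 3′ UTR, from transcript base 3315: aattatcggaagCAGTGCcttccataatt
Tfrc, 3′ UTR, from transcript base 3694: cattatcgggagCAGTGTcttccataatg
Tfrc, 3′ UTR, from transcript base 3759: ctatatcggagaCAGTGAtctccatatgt
Tfrc, 3′ UTR, from transcript base 3806: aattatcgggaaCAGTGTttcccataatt
The pattern was found in 1.11% of 21291 transcripts searched and within a UTR in 0.535%, and among the 10 genes in these 4. A match describes the letters and says nothing of binding in these livers.

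Fth1 stood at 4517 and 4495 scaled CPM in Control, against 1939 and 2722 in Dph1 KO. The Control libraries were nearly equal and both Dph1 KO libraries lay well below them, the second nearer. The Dph1 KO libraries averaged 51.7% of the Control level, a log2 fold change of -0.95 (SE 0.31, 95% interval -1.64 to -0.26, edgeR adjusted p = 0.0660). It missed the threshold in the main test and passed it under 6 of 12 settings. Among them were DESeq2 (-0.98, adjusted p = 0.0018) and the fit with the GC and length trend removed (-0.80, edgeR adjusted p = 0.0345). It did not pass with RLE scaling (edgeR adjusted p = 0.0688), on unique reads (edgeR adjusted p = 0.0610) or on log2(TPM + 1) (limma adjusted p = 0.3695). Without the first Dph1 KO library the value was -0.70, and without the second it was -1.20. The value was below 0 in every setting, from -1.20 to -0.58. TPM gave 7833 ± 532 in Control and 5243 ± 438 in Dph1 KO (SD, n = 2 each), a smaller gap.

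Ftl1 stood at 15211 and 17776 scaled CPM in Control, against 6967 and 10253 in Dph1 KO, with no overlap. The Dph1 KO libraries averaged 52.2% of the Control level, a log2 fold change of -0.94 (SE 0.35, 95% interval -1.71 to -0.16, edgeR adjusted p = 0.0913). With the GC and length trend removed it was -0.28 (edgeR adjusted p = 0.389), nearer to 0 than the value of Fth1 under the same correction. DESeq2 gave -0.96 (adjusted p = 0.00368), beside 10.8% of the genes it tested called lower.

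Most reads of Ftl1 matched several places, so its level depends on how the authors counted them, and the method was not given in the sources used here. Unique reads numbered 97304 of 279665 and 112715 of 319625 in Control, and 53036 of 164398 and 77958 of 224171 in Dph1 KO. None of its 52748 to 97920 junction reads per library was unique. BLAST found 7 copies of at least 90% identity over 200 bases, of which 4 were in the tables and 3 had reads. These reads numbered 10 to 32 per library in all, and every one was uniquely matched. On unique reads alone the log2 fold change was -0.997 for Ftl1 (edgeR adjusted p = 0.068) and -0.96 for Fth1 (edgeR adjusted p = 0.061), close to those from total reads. Together the ferritin subunits took 1.86% and 1.97% of gene reads in Control, against 1.03% and 1.34% in Dph1 KO. Their ratio in TPM, Ftl1 to Fth1, was 3.01 and 3.53 in Control, against 3.20 and 3.36 in Dph1 KO, so that it overlapped between the genotypes.

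Of 19 other tested genes of iron transport and storage, 2 rose and 1 fell, beside 4.86% and 7.47% of all tested genes, with a median log2 fold change of 0.03. Ltf, which encodes the iron-binding protein lactoferrin, rose from 25.0 and 30.3 scaled CPM to 55.4 and 54.1 (edgeR log2 fold change 0.99, SE 0.20, adjusted p = 0.0175). Slc39a8, a metal importer, rose from 5.55 and 5.45 to 13.4 and 8.37 (0.99, SE 0.27, edgeR adjusted p = 0.0407). Slc25a28, the mitochondrial iron importer mitoferrin 2, fell from 57.9 and 69.2 to 31.5 and 39.2 (-0.85, SE 0.21, edgeR adjusted p = 0.0331). The calls were lost without either Control library in all 3, without the first Dph1 KO library in Slc39a8 (0.63, edgeR adjusted p = 0.111), and with the GC and length trend removed in Slc39a8 (0.44, edgeR adjusted p = 0.154) and Slc25a28 (-0.52, edgeR adjusted p = 0.0516).

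Of the 3 genes for the iron regulatory proteins and their ligase, none fell, beside 7.47% of all tested genes, and Ireb2 rose, beside 4.86%. It encodes the protein that binds the elements printed above when iron is low, and stood at 30.4 and 28.6 scaled CPM in Control, against 71.5 and 40.4 in Dph1 KO (edgeR log2 fold change 0.92, SE 0.26, adjusted p = 0.0458). With the GC and length trend removed it was 0.25 (edgeR adjusted p = 0.2995), and the call was also lost without either Control library or the first Dph1 KO library. Chosen after their values were seen, Aco1, which encodes the other such protein, had a log2 fold change of -0.23 (edgeR adjusted p = 0.5), and Fbxl5, the ligase, of 0.37 (edgeR adjusted p = 0.253).

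Of 10 genes for haem and haemoglobin iron recycling, 1 fell and none rose, beside 7.47% and 4.86% of all tested genes, with a median log2 fold change of -0.16. Slc48a1, which moves haem out of endolysosomes, fell from 329 and 401 scaled CPM to 124 and 172 (edgeR log2 fold change -1.31, SE 0.26, adjusted p = 0.0175). The value was -0.90 with the GC and length trend removed, and the call was lost without the second Control library (-1.16, edgeR adjusted p = 0.103). Hmox1, haem oxygenase 1, chosen after its values were seen, stood at 46.3 and 45.5 in Control, against 24.5 and 33.6 in Dph1 KO. Its log2 fold change was -0.66 (edgeR adjusted p = 0.0625), and -0.36 with the GC and length trend removed (edgeR adjusted p = 0.126). DESeq2 called it lower (-0.69, adjusted p = 0.0489). Of 20 genes for iron-sulfur cluster assembly 3 fell and none rose, beside the same shares. Their median log2 fold change was -0.22, and -0.14 with the GC and length trend removed. Iba57, an assembly factor for mitochondrial clusters, fell from 25.7 and 31.3 scaled CPM in Control to 15.2 and 16.3 in Dph1 KO, and Nubp1, one for cytosolic clusters, from 96.9 and 117 to 52.8 and 68.7. They had log2 fold changes of -0.86 (SE 0.20, edgeR adjusted p = 0.0270) and -0.82 (SE 0.22, edgeR adjusted p = 0.0426). With the trend removed these were -0.56 and -0.58 and stayed past the threshold. Fdx1l, a mitochondrial ferredoxin, fell from 46.2 and 46.0 to 20.0 and 30.8, a log2 fold change of -0.86 (SE 0.23, edgeR adjusted p = 0.0397), and -0.04 with the GC and length trend removed. All 3 calls were lost without either Control library, those of Fdx1l and Nubp1 also without the first Dph1 KO library (-0.56 and -0.61), and those of Iba57 and Nubp1 with library totals alone (-0.59 and -0.56).

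**Figure D4:**
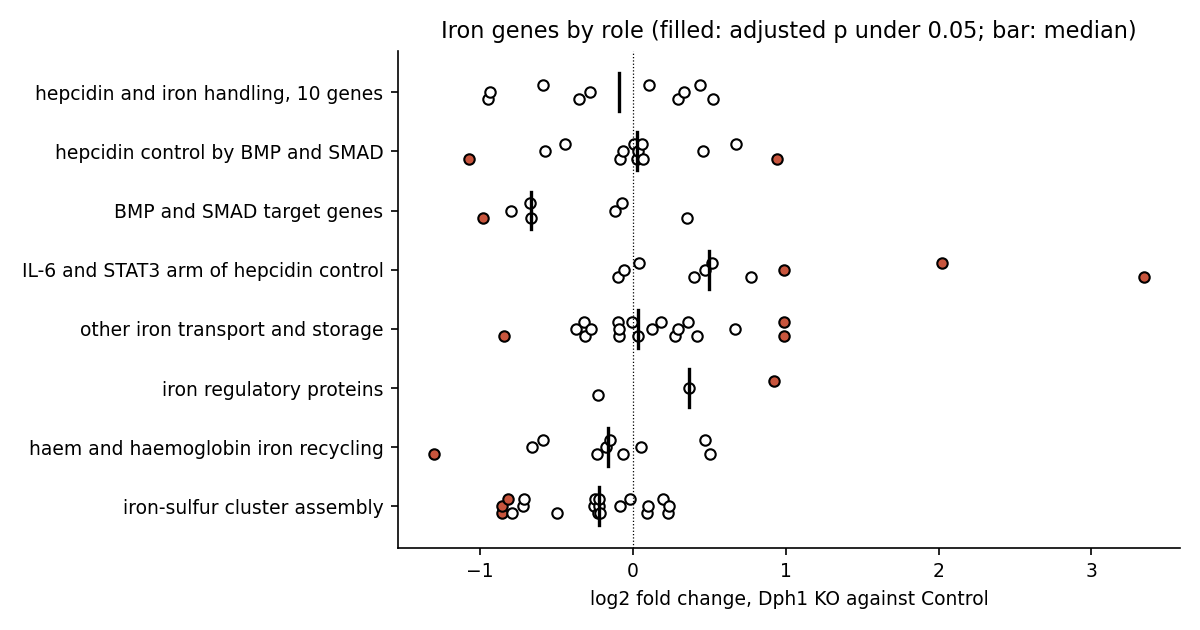
Log2 fold changes of tested genes in each group of iron genes, with the median as a bar and genes past the threshold filled. None of the 10 genes is filled, and the largest values are those of Saa1 and Saa2 in the IL-6 and STAT3 arm.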

How the data were processed

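Stranded mRNA libraries were made from RNA of frozen liver, per the labels' protocols. The deposited tables hold, per the file headers, whole-number read counts of genes, exons, junctions and introns as total and uniquely matched reads, and the authors' RPKM and TPM values. The deposited fraction columns (shares of unique exon and intron reads) were not used. The GRCm38 (mm10) build comes from the submitters' processing notes. The aligner, counter and strand setting were not given in the sources used here. Genes were matched by name.

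Total gene reads were filtered with filterByExpr, scaled by TMM and tested with edgeR 4.0.16 (R 4.3.3), quasi-likelihood, with Benjamini-Hochberg adjustment over 13303 genes. Scaled CPM use the TMM library sizes. SE is the size of the log2 fold change divided by the root of F. With 2 libraries a genotype, an exact permutation test cannot go below p = 0.333. Alternatives were RLE scaling, library totals alone, DESeq2 1.42.0, no filter, unique reads, exon reads, limma 3.58.1 on log2(TPM + 1), a GC and length trend (mgcv 1.9.3) and leaving out each library. A lone library is assumed to vary like the other pair. The test was checked on counts with known changes.

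Named genes were the 10, Dph1, in each list the called genes of lowest p (at most 3), and the 3 tested genes nearest to Hamp in centred log2 CPM. The text marks genes named outside this rule. Apoa1, Cd68 and Stab1 are the called markers of their cell types. The members and lists were chosen with earlier results of these data known. Promoters came from RefSeq (GRCm38.p6; 8 of 10 genes matched; Trf and Slc40a1 did not), transcripts from GENCODE M21, copies from BLAST 2.17.0.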

Additional observations from a re-analysis of the deposited data

How the results depend on the processing

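Of 120 values of the 10 genes over 12 settings, 102 kept their direction and their side of the threshold, 13 passed it and 5 changed sign, and the cause was not tested. Members called higher numbered 1 with library totals alone and 0 to 2 when a library was left out. Members called lower numbered 1 with library totals alone, 2 with DESeq2, 2 without the filter, 1 on exon reads, 1 with the GC and length trend removed and 0 to 3 when a library was left out. Over all genes, 646 were higher and 994 lower; library totals alone gave 2634 higher, limma on TPM 2 and 1 (Dph1 at -1.20, adjusted p = 0.192, and the listed genes named above did not pass there), and leaving out a library 180 to 2599 higher and 346 to 2806 lower, the most without the second Dph1 KO library. Values past the threshold were Slc40a1 0.80 with library totals alone and Fth1 -0.70 with library totals alone, -0.98 with DESeq2, -0.96 without the filter, -0.92 on exon reads and -0.80 with the trend removed. Ftl1 passed with DESeq2 (-0.96) and without the filter (-0.94). Without the second Dph1 KO library the values of Tfrc, Tfr2, Slc40a1, Fth1 and Ftl1 were 0.79, -0.80, 0.66, -1.20 and -1.23, each past the threshold. Leaving out each library in turn gave ranges of -0.39 to 0.50 for Hamp2 (-0.38 to 0.53 on unique reads), 0.015 to 0.79 for Tfrc, -0.80 to -0.36 for Tfr2, 0.38 to 0.68 for Slc40a1, -1.20 to -0.70 for Fth1 and -1.23 to -0.66 for Ftl1. Opposite signs were given by Hamp2 without the second Control library (-0.18) or the second Dph1 KO library (-0.39), on unique reads likewise (-0.17 and -0.38), by Trf (0.11) and Hfe (0.001) in limma on TPM, and by Tfrc (-0.17) with the trend removed. No paired analysis was possible because the labels number no replicates: replicate 1 and 2 only name the libraries here, in accession order, and pair nothing. The number of libraries and, for Hamp2 and Bmp6, the depth limit the precision.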

Other observations

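Intron reads of the ferritin genes were more numerous in Dph1 KO, where their gene totals were lower. Ftl1 had 179 and 163 intron reads in Control, against 457 and 295 in Dph1 KO, and Fth1 had 34 and 28 against 62 and 51. Over all tested genes the median share of intron reads was also higher in Dph1 KO, at 8.20% and 6.73% against 6.02% and 4.91%. As a share of all gene reads in a library, intron reads overlapped between the genotypes. They made up 8.64% and 6.24% in Control, against 10.98% and 8.26% in Dph1 KO. Trf had 754 and 425 intron reads in Control, against 1412 and 594. Their part in the ferritin values was not tested.

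The genes whose centred log2 CPM over the 4 libraries lay nearest to those of Hamp were Sox6, Irak4 and Pnp2, at Euclidean distances of 0.0495, 0.0512 and 0.0658. Of 8 genes of the 10 with a promoter entry, 2 held GGCGCC (Hamp and Tfrc), 2 held TTCNNNGAA (Hamp and Hamp2), 2 held TGACNNNGC (Hfe and Bmp6) and 1 held CACGTG (Bmp6), against 9.59%, 7.02%, 10.2% and 6.02% of all promoters. A gene was counted when any of its promoters matched (12 entries for the 8 genes), while the percentages count each promoter, so the units differ.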
